A study of Homo sapiens with 24 samples.

Results

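The LINC symbols name long intergenic non-coding RNAs, transcripts from loci of their own that are spliced and polyadenylated much like messenger RNA but carry no long reading frame. The number after LINC is a serial number and says nothing of function. The 200 LINC RNAs described here were the best expressed of 1245 LINC symbols in a table of 25161 gene symbols and 25575 rows. Each symbol was represented by its row with the highest mean over all 24 arrays, and members were chosen by their measured level, as the 200 symbols with the highest mean over the 6 DMSO arrays. All 200 had a single row, and none held the same values as another symbol. A current gene table listed 195 of the 200 symbols as current names and 5 as older synonyms, and it classed 199 as long non-coding RNA.

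RNA of DG-75 and SU-DHL-4, a pair of B-cell lymphoma lines, was measured on Clariom D human arrays. Both are established lines, SU-DHL-4 from a diffuse large B-cell lymphoma and DG-75 from a Burkitt lymphoma. Cells of either line received DMSO (the solvent), 1 µM Entospletinib (Ento), 0.01 µM AZD5153 (AZD), or 1 µM Ento together with 0.01 µM AZD (Ento+AZD) over 72 h, with 3 arrays per line and treatment, 24 in all. Ento blocks the kinase SYK, which passes on signals of the B-cell receptor, and AZD, which binds BET proteins bivalently, blocks these proteins, which read acetylated chromatin and help to start transcription. The labels number the replicates 1 to 3 and do not say whether these were separate cultures. The study's methods speak of biologically independent samples in general, without naming the arrays. The p-values measure the spread between these arrays.

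Long non-coding RNAs act in many ways. Some recruit chromatin or splicing factors, some bind proteins or microRNAs in the cytoplasm, and for many loci the act of transcription or the enhancer beneath it matters more than the RNA. Many are found in few cell types, and many start close to a protein-coding gene. BET proteins sit at enhancers and promoters, where such RNAs arise.

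For 149 of the 200 LINC RNAs the RefSeq table of GRCh38.p14 held a promoter window of 300 bases, 250 before and 50 after the start. The 5 windows below belong to the RNAs on which the results turn. LINC00487 had the largest difference in signal between lines. LINC02909 fell most in DG-75 under Ento+AZD. LINC02202 starts beside EBF1, LINC01215 rose in both lines under Ento+AZD, and LINC00294 fell under AZD. Capitals mark matches, on either strand, to GGGCGG (the GC box), CCAAT (the CCAAT box) or CCGGAAG (an ETS factor motif). TATAAA (the TATA box) and CACGTG (the E-box) were also searched. A base could belong to more than 1 match.
LINC00487 (chr2:6770262-6770561, minus strand): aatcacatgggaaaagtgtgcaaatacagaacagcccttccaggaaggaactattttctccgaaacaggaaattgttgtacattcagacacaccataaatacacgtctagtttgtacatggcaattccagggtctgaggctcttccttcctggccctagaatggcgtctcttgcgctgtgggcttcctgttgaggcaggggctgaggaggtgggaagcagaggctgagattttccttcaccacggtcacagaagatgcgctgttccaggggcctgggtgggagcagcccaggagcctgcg
LINC02909 (chr12:24997416-24997715, minus strand): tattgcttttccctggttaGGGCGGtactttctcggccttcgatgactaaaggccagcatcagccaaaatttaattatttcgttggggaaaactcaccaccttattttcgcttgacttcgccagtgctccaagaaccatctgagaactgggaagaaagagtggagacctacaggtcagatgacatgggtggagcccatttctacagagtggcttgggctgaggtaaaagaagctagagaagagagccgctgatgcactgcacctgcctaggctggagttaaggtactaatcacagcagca
LINC02202 (chr5:159100233-159100532, plus strand): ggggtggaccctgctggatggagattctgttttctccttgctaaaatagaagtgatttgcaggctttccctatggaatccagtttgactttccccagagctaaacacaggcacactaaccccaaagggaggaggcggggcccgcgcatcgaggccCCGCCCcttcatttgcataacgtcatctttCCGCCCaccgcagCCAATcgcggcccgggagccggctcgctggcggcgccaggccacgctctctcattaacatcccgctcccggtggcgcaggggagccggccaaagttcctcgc
LINC01215 (chr3:108125571-108125870, plus strand): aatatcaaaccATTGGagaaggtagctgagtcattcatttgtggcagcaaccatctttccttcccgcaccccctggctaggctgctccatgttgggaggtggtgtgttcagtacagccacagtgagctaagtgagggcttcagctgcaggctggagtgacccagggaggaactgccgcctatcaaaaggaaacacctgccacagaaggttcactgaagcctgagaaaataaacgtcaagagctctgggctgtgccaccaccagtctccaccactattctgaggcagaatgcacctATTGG
LINC00294 (chr11:33075900-33076199, plus strand): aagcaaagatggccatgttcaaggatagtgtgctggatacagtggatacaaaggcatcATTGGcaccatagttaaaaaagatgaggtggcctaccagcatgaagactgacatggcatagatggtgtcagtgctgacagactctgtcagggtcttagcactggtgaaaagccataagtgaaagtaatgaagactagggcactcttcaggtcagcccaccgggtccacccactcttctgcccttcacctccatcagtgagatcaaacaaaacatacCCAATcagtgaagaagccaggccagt

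The LINC02202 window held 2 GC boxes and a CCAAT box, and its GC content was 61.0%. The LINC02909 window held 1 GC box at a GC content of 48.7%. It also holds 1 of 3 listed starts of IRAG2, which encodes a membrane protein of lymphocytes. That start lies 0.11 kb away on the opposite strand. LINC01215 and LINC00294 each had 2 CCAAT boxes. None of the 5 motifs was found in the LINC00487 window.

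Over the 149 windows the median GC content was 58.3%, against 46.7% for 726 other LINC symbols of the table and 62.7% for 15843 protein-coding genes. A GC box was present in 44.3% of them, in 13.1% of the windows of other LINC symbols, in 58.5% of those of protein-coding genes and in 44.6% of all 27305 windows. The ETS motif was found in 12.8%, against 3.44%, 14.2% and 10.7% of the same sets. TATAAA occurred in 9.40%, against 17.2%, 9.63% and 11.95%. The CCAAT box was about as frequent in all 4 sets, at 36.9%, 37.2%, 36.4% and 35.7%, and CACGTG stood at 8.73%, 5.37%, 8.88% and 7.43%. These shares are descriptions, and a match is not evidence of a bound factor.

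The 200 LINC RNAs spanned a wide range of signal. The mean log2 value over the 6 DMSO arrays, which is the value that chose them, ran from 11.03 for LINC01002 to 4.59 for LINC01502, with a median of 5.41. The median was 2.56 for the other 1045 LINC symbols and 5.10 for all rows. Only 12 of the 200 were above 8, 46 lay between 6 and 8, and 142 were at 6 or under. The 10 with the highest DMSO mean were LINC01002, LINC00265, LINC00426, LINC01000, LINC01001, LINC02210, LINC01184, LINC01922, LINC00999 and LINC00674. At the lower edge, LINC00851 (4.5995), LINC01517 (4.5887) and LINC01502 (4.5874) were just inside and LINC01503 (4.5847), LINC01123 (4.5827) and LINC01563 (4.5823) just outside. When the symbols were ranked by the 18 treated arrays instead, 190 of the 200 were chosen again.

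**Figure D1:**
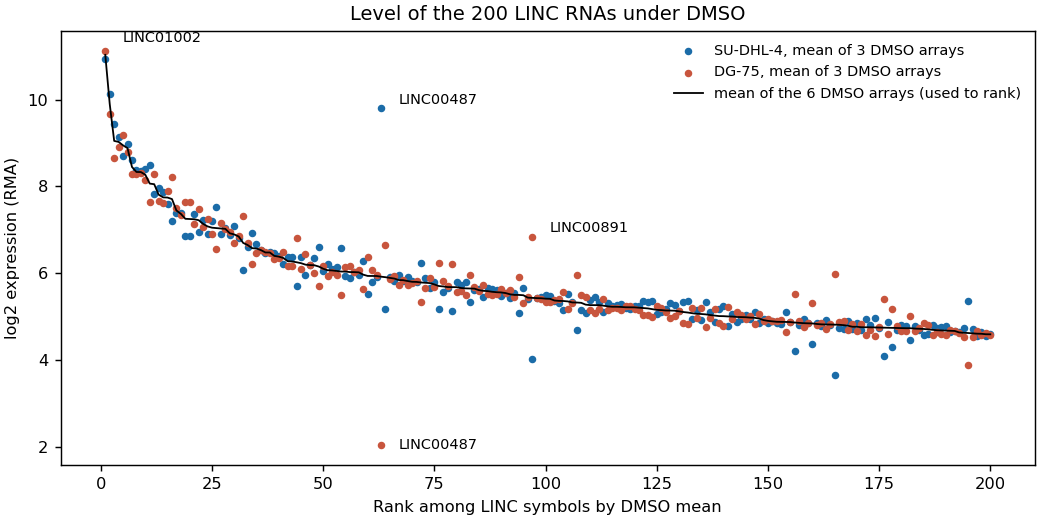
Mean log2 value of each LINC RNA in the 3 DMSO arrays of SU-DHL-4 (blue) and of DG-75 (red) against its rank by the mean of all 6 (black line). Most pairs of points lie close together, and LINC00487 stands at 9.80 in SU-DHL-4 against 2.03 in DG-75.

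A high signal does not by itself show expression on an array, because each probe set has its own background. COL1A1, a collagen gene that B cells do not use, had DMSO means of 5.92 ± 0.08 in SU-DHL-4 against 5.87 ± 0.07 in DG-75 (SD, n = 3). Of the 200 LINC RNAs, 136 had a lower DMSO mean than COL1A1. No detection call per probe set was used, so a level alone does not show that a LINC RNA was expressed. The labelled cell type was checked against its markers. CD79A, a part of the B-cell receptor, stood at 12.1 and 11.3 in the DMSO arrays of SU-DHL-4 and DG-75, and CD22 at 11.2 and 9.87. The T-cell marker CD2 stood at 1.86 and 1.46. Array values of the LINC RNAs were tight, with a median SD between replicates of 0.16 to 0.24 by group, against 0.18 to 0.22 for all rows. The mean over the 200 RNAs differed little between arrays, from 5.67 to 5.84.

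The range of the 200 LINC RNAs over all 24 arrays had a median of 1.00 on the log2 scale, against 1.07 for all rows. It was under 1 for 100 of them and over 2 for 16. LINC00487, LINC01484, LINC02909 and LINC00891 had the widest ranges, at 8.33, 4.37, 3.94 and 3.59. Within a line, 2 RNAs ranged over more than 2 in SU-DHL-4 against 4 in DG-75. In the DMSO arrays the lines differed by under 0.5 for 168 of the 200.

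The lines were compared in the 18 treated arrays, which had no part in the ranking. The 3 treated arrays of each replicate number were averaged, which left 3 values per line, and limma was fitted to all rows. A call needed a fold change over 2 and an adjusted p under 0.05. Of the 200 LINC RNAs 12 were called, against 7.07% of all rows. Of these, 4 were higher in SU-DHL-4 (2.85% of all rows) and 8 higher in DG-75 (4.22%). By adjusted p alone 39 passed (19.5%, against 27.5% of all rows), 12 higher in SU-DHL-4 (10.9% of all rows) and 27 higher in DG-75 (16.6%). In 10 of these 39 the DMSO mean of one line lay below the lower edge of the ranking, so that they entered the 200 through their level in the other line. A line difference was part of how these 10 were chosen, and without them the split was 8 and 21. After quantile normalization the split of all that passed became 21 and 23, and with array medians subtracted 20 and 25. The same 12 were called under both. Of the 12, LINC00487, LINC00891, LINC01484, LINC01806 and LINC01260 are among those 10, and the values of these 5 are given as a description.

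LINC00487 had the largest difference in signal of the 200. Its DMSO values were 9.86, 9.84 and 9.70 in SU-DHL-4 against 1.82, 2.33 and 1.96 in DG-75. The treated values had a lowest, median and highest of 9.31, 9.72 and 9.93 in SU-DHL-4 against 1.61, 1.68 and 2.85 in DG-75. The groups were far apart under every treatment, and the DMSO mean in DG-75 lay below the median of 2.56 of the other LINC symbols. The signal differed by 7.78 (SE 0.16) in the treated arrays. This and the differences below are of probe set signal. Where the lower line was not shown to be above background, as here, they are no measure of the ratio of transcripts. The nearest protein-coding gene, CMPK2, lies 70.2 kb away and encodes a mitochondrial nucleotide kinase. It was also higher in SU-DHL-4, by 1.10 (adjusted p = 0.00227).

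The other 3 RNAs called higher in SU-DHL-4 had smaller differences. LINC02202 ran from 7.44 to 7.98 in the treated arrays of SU-DHL-4 (median 7.67) and from 5.94 to 7.17 in those of DG-75 (median 6.44). The lines did not overlap, and the difference was 1.18 (SE 0.12, adjusted p = 3.784e-05). EBF1, a transcription factor that sets up the B-cell programme, lies 0.567 kb from LINC02202 on the opposite strand. EBF1 was higher in SU-DHL-4 by 2.01 (SE 0.13, adjusted p = 1.869e-06). LINC00665 had medians of 6.68 and 5.62 without overlap and differed by 1.20 (adjusted p = 2.993e-05). The nearest coding gene, ZFP14, a zinc finger gene 2.70 kb away, differed in the other direction by -0.57 (adjusted p = 0.0141). LINC02909 was the only one of the 12 whose treated values overlapped between lines, with 7.07 to 8.75 in SU-DHL-4 against 5.10 to 7.09 in DG-75. It differed by 1.46 (adjusted p = 1.708e-05) in the treated arrays and by 0.84 in the DMSO arrays.

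Among the 8 RNAs higher in DG-75 was LINC00891. It ran from 4.01 to 4.47 in the treated arrays of SU-DHL-4 (median 4.40) and from 6.68 to 7.45 in those of DG-75 (median 6.92). The groups were separate, with a difference in signal of -2.70 (SE 0.11). LINC01484 had a wider spread, from 2.74 to 4.79 in SU-DHL-4, against 5.10 to 7.12 in DG-75. It differed in signal by -2.38 (SE 0.25). For neither RNA was the SU-DHL-4 signal shown to be above background. LINC00667 had medians of 6.32 and 8.17 and differed by -1.80 (adjusted p = 5.904e-06). AKAIN1, an inhibitor of protein kinase A anchoring 40.4 kb from it, differed the other way, by 2.08 (adjusted p = 7.749e-07).

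The remaining 5 differed by -1.10 to -1.41, and none overlapped between lines in the treated arrays. They were LINC01806 (-1.41), LINC01128 (-1.33), LINC01599 (-1.24), LINC00662 (-1.15) and LINC01260 (-1.10). LINC01260 lies 4.75 kb from ADA, the purine enzyme adenosine deaminase, which was also higher in DG-75 (difference -1.58, adjusted p = 4.016e-05). Without replicate 3 of SU-DHL-4 LINC01260 was not called (11 of the 12 were then called). LINC01599 was the only one of the 12 whose DMSO values overlapped between lines, and its difference there was -0.27 (adjusted p = 0.368 over the DMSO arrays).

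**Figure D2:**
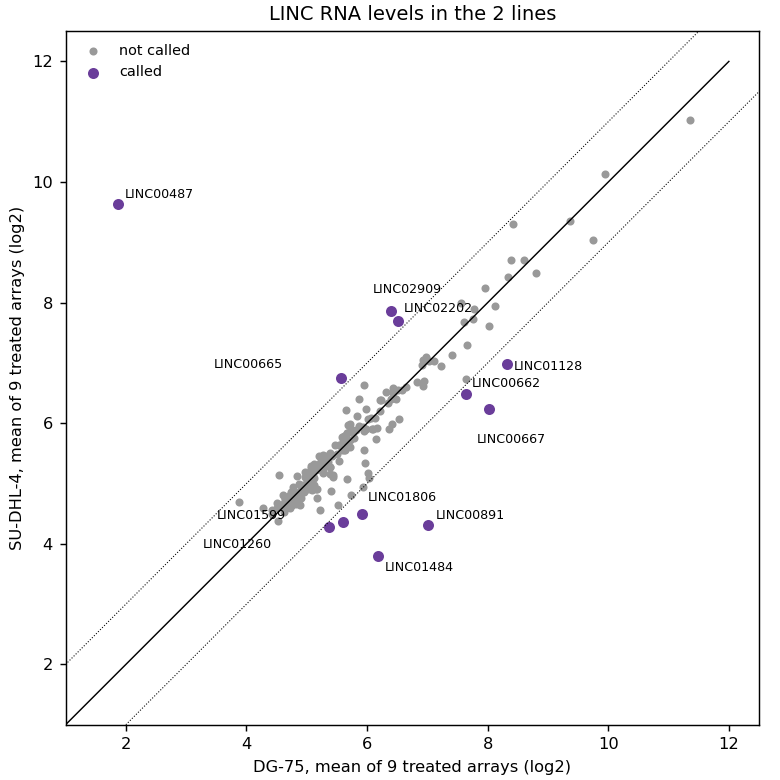
Mean log2 value of each LINC RNA over the 9 treated arrays of SU-DHL-4 (vertical) and of DG-75 (horizontal), with the 12 called RNAs in purple. The solid line marks equal values and the dotted lines a difference of 1, and LINC00487 lies far from all others at 9.64 and 1.86.

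The level of an RNA went with how often it passed. By adjusted p alone the lines differed for 22 of 142 LINC RNAs with a DMSO mean of 6 or under (15.5%), 13 of 46 between 6 and 8 (28.3%) and 4 of 12 above 8 (33.3%). The 10 that entered through one line were all among the 22. The shares among all rows at these levels were 16.2%, 45.6% and 46.7%. The share of the LINC RNAs was close to that of all rows at the lowest level and lay below it at the other levels, and these shares were not tested against each other. Of 23 well known long non-coding RNAs with other kinds of name, 11 passed (47.8%), 2 higher in SU-DHL-4 and 9 higher in DG-75. GAS5 was among the 11 and MALAT1 was not. By level, 4 of 9 passed at 6 or under, 3 of 5 between 6 and 8 and 4 of 9 above 8. Of all rows that passed, 2782 were higher in SU-DHL-4 and 4251 higher in DG-75.

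Neighbouring genes were read from the same fit. Where the LINC RNA passed the adjusted p, its nearest protein-coding gene passed in 21 of 39 cases (53.8%), 14 in the same and 7 in the opposite direction. Of all protein-coding symbols 31.9% passed. In 7 of the 21 the RNA was one of the 10 that entered through one line. Where it did not pass, the neighbour passed in 54 of 161 cases (33.5%), 28 with the same sign as the RNA and 26 with the opposite one. For pairs at most 5 kb apart the counts were 9 of 14 (7 same, 2 opposite) and 11 of 31 (6 same, 5 opposite). Of 120 pairs with promoter windows for both genes, 7 had starts within 1 kb of each other on opposite strands. The differences of RNA and neighbour had the same sign in 3 of these 7 pairs and opposite signs in 4. In 1 of the 7 pairs, LINC02909 and IRAG2, both passed. LINC02202 and EBF1, described above as close and on opposite strands, were not among these 7 pairs. Both of them passed, higher in SU-DHL-4. LINC01134 differed by -0.10 and did not pass, while C1orf174, whose start lies 0.132 kb away, was higher in DG-75 (difference -1.24, adjusted p = 2.328e-05).

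Lists of LINC symbols were followed through the comparison, in which 27.5% of all rows passed the adjusted p, and 45.6% of those with a DMSO mean between 6 and 8. Of 9 LINC symbols linked to B cells, 7 were in the table and 3 among the 200, LINC00926, LINC01215 and LINC00487. LINC00926 stood at 6.28 ± 0.14 in SU-DHL-4 against 5.64 ± 0.22 in DG-75 (SD, n = 3 DMSO arrays). LINC00926 passed the adjusted p, higher in SU-DHL-4, and LINC01215 did not. LINC00487 entered the 200 through SU-DHL-4 alone and is no independent case. Of the 4 outside the 200, 1 passed in each direction. Of 8 symbols linked to T cells or myeloid cells, 4 were in the table and 1 among the 200, LINC00528, at 4.60 and 4.80 under DMSO, which did not pass (adjusted p = 0.447). Of the 3 outside the 200, LINC00877 passed, higher in SU-DHL-4 by 1.89 (adjusted p = 5.412e-05). Of 15 symbols studied in cancers, all were in the table and 8 among the 200. Of these 8, 5 passed, with LINC00665 higher in SU-DHL-4 and LINC01128, LINC00847, LINC00294 and LINC00662 higher in DG-75, and none of the 7 outside the 200 passed. None of 7 symbols known to encode small proteins was in the table.

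Few drug responses were called, among the LINC RNAs as among all rows. In bulk RNA, fewer cells of a kind and less RNA per cell cannot be told apart, and each comparison with DMSO reads the DMSO arrays that also ranked the members. Under Ento alone none of the 200 was called in SU-DHL-4 (all rows 0.0508%), in DG-75 (0.00391%) or over both lines (0.00782%). By limma, 17, 7 and 16 of the 200 had an unadjusted p under 0.05, against 2196, 718 and 1627 of all 25575 rows. The smallest adjusted p was 0.240 in SU-DHL-4. The median change under Ento was -0.02 in SU-DHL-4 against 0.01 in DG-75, against -0.06 and -0.00432 over all rows. Under AZD alone 1 was called in SU-DHL-4 (0.18% of all rows), 0 in DG-75 (0.18%) and 0 over both lines (0.254%). In limma 19 of the 200 in DG-75 and 27 over both lines had an unadjusted p under 0.05, against 3537 and 4592 of all rows. Under Ento+AZD 1 was called in SU-DHL-4 (1.19%), 1 in DG-75 (0.833%) and 1 over both lines (0.856%). All of these were lower than under DMSO. They were LINC01599 in SU-DHL-4 and LINC02909 in DG-75 and over both lines.

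LINC02909 fell in DG-75 under Ento+AZD. Its values in DG-75 were 7.57, 7.84 and 7.51 under DMSO, 6.74, 7.09 and 7.04 under Ento, 6.18, 6.64 and 7.0 under AZD and 5.70, 5.10 and 6.11 under Ento+AZD. Each treated group lay below the DMSO arrays without overlap, and Ento+AZD also lay below both single agents. Against DMSO the change was -2.0 (SE 0.24, limma adjusted p = 0.0115, lower in 3 of 3 differences between arrays of the same number, which were not shown to be paired). Against Ento, a comparison that reads no DMSO array, it was -1.32 (SE 0.24, adjusted p = 0.0261), where 0.657% of all rows were called. Against AZD it was -0.97, and none of the 200 was called in that comparison (0% of all rows). There 9 of the 200 and 1030 of all 25575 rows had an unadjusted p under 0.05 in limma. The call against DMSO was lost without replicate 1 of DMSO or replicate 1 of Ento+AZD (changes of -1.94 and -2.15). The call against Ento was lost without replicate 1 or 2 of Ento or replicate 1 or 2 of Ento+AZD (changes between -0.99 and -1.47).

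In SU-DHL-4 the values of LINC02909 were 7.90, 8.50 and 9.04 under DMSO, 7.43, 7.49 and 7.07 under Ento, 8.15, 8.75 and 8.50 under AZD and 8.04, 7.46 and 7.88 under Ento+AZD. Here the Ento arrays lay below the DMSO arrays, while AZD and Ento+AZD overlapped with them. None of the changes passed, with -1.15 under Ento (adjusted p = 0.247) and -0.69 under Ento+AZD (adjusted p = 0.249). The line difference in the response to Ento+AZD was 1.31 (SE 0.38, adjusted p = 0.383) and was not called. Over both lines LINC02909 fell by 1.34 (SE 0.29, adjusted p = 0.0042, lower in 5 of 6 such differences) and was called in every one of 12 fits that left out an array. IRAG2, whose start it shares a window with, was one of the brighter genes, with DG-75 values of 11.78, 11.96 and 11.64 under DMSO and 11.36, 11.39 and 11.37 under Ento+AZD. Its change in DG-75 was -0.42 (adjusted p = 0.118), and over both lines it was -0.28 (adjusted p = 0.0538).

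LINC01599 fell in SU-DHL-4 under AZD and Ento+AZD. Its SU-DHL-4 values were 5.62, 5.35 and 5.39 under DMSO, 5.03, 4.09 and 4.30 under Ento, 4.06, 4.08 and 4.56 under AZD and 4.51, 4.49 and 4.18 under Ento+AZD. All 9 treated arrays lay below the 3 DMSO arrays. Every one of these values lay under the DMSO mean of 5.92 for COL1A1 in SU-DHL-4, and the signal was not shown to be above background. In DG-75 the values were between 5.07 and 5.99 throughout, and the groups overlapped. The change was -1.22 under AZD (SE 0.22, adjusted p = 0.0456) and -1.06 under Ento+AZD (SE 0.22, adjusted p = 0.025). The difference between lines in the response to Ento+AZD was -0.996 (adjusted p = 0.332). Both calls in SU-DHL-4 were lost in each of the 6 fits that left out an array, without the replicate number in the model, and after either rescaling, and the adjusted p then reached 0.237 and 0.144 at most. LINC01599 lies within the bounds of VCPKMT on the same strand, a gene for a lysine methyltransferase, and whether its probes read shared sequence is not stated. VCPKMT values in SU-DHL-4 were 6.88, 7.24 and 7.23 under DMSO and 7.43, 7.53 and 7.30 under Ento+AZD, a change of 0.30 in the opposite direction (adjusted p = 0.39).

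**Figure D3:**
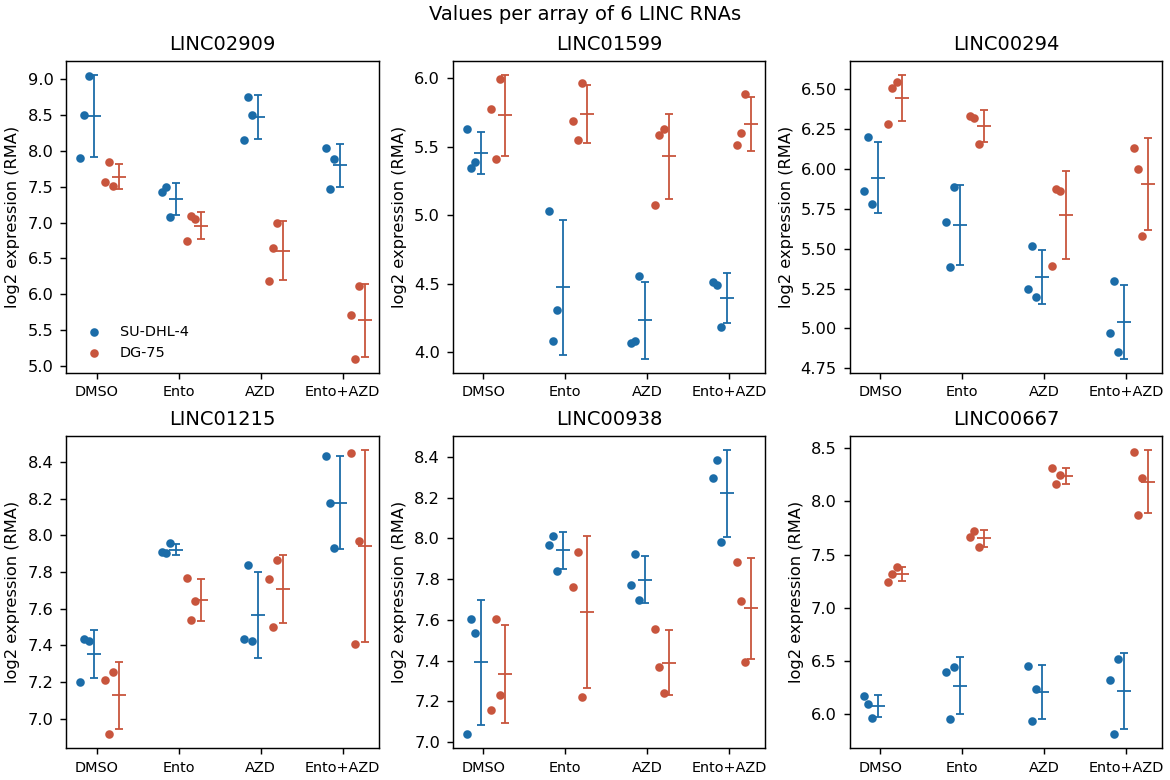
Log2 values of 6 LINC RNAs in each array of SU-DHL-4 (blue) and DG-75 (red) by treatment, with the mean and SD of the 3 arrays beside the points. LINC02909 in DG-75 descends from DMSO to Ento+AZD, and LINC01599 is below its DMSO values in all treated arrays of SU-DHL-4 only.

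By adjusted p alone, without a minimum fold change, 14 of the 200 LINC RNAs passed over both lines under Ento+AZD (7%, against 8.49% of all rows). Those that were called in no comparison and stand on no list are named here after their values were seen. Of the 14, 11 rose (1.46% of all rows) and 3 fell (7.03%), and among all rows that passed 17.2% were higher. After quantile normalization 17 rose and 2 fell (89.5% higher), against 1059 and 1175 of all rows (47.4% higher). After subtraction of the array median 16 rose and 2 fell (88.9%), against 891 and 1006 of all rows (47.0%). The main fit had 373 rows higher and 1799 lower. The share of the 200 that passed lay below that of all rows in the main fit and above it under both rescalings. The median change of the 200 was 0.00300, against -0.07 over all rows. Subtracting each array's median moved the median of all rows by 0.109, and the median of the 200 then stood at 0.11. Of the 14, 7 passed in every one of 12 fits that left out an array. These were LINC01215, LINC00938, LINC01001, LINC00476 and LINC01000, which rose, and LINC00294 and LINC02909, which fell. The other 7 passed in 3 to 10 of these 12 fits.

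LINC01215, one of the B-cell list, rose in both lines. Its SU-DHL-4 values were 7.20, 7.43 and 7.42 under DMSO, 7.91, 7.90 and 7.96 under Ento, 7.43, 7.84 and 7.42 under AZD and 8.43, 8.17 and 7.93 under Ento+AZD. Its DG-75 values were 7.21, 6.92 and 7.25 under DMSO, 7.77, 7.54 and 7.64 under Ento, 7.76, 7.50 and 7.86 under AZD and 8.45, 7.41 and 7.97 under Ento+AZD. The Ento+AZD arrays lay above the DMSO arrays in both lines. The change was 0.83 in SU-DHL-4 (SE 0.17, adjusted p = 0.0252), 0.81 in DG-75 (SE 0.17, adjusted p = 0.0351) and 0.82 over both lines (SE 0.12, adjusted p = 0.000186, higher in 6 of 6 differences between arrays of the same number). Within a single line it passed in 0 of 6 such fits for SU-DHL-4 and in 1 of 6 for DG-75, and without the replicate number in the model it passed in neither line. By adjusted p alone, 4 of the 200 passed in SU-DHL-4 (2.36% of all rows) and 6 in DG-75 (2.39%) under Ento+AZD, and LINC01215 was the only one that passed in each line under the same treatment.

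LINC00294 fell under AZD and under Ento+AZD. Its SU-DHL-4 values were 5.86, 6.20 and 5.78 under DMSO, 5.67, 5.38 and 5.88 under Ento, 5.25, 5.51 and 5.20 under AZD and 4.97, 5.30 and 4.85 under Ento+AZD. In DG-75 they were 6.28, 6.50 and 6.54, then 6.33, 6.32 and 6.15, then 5.39, 5.87 and 5.86, then 6.13, 6.0 and 5.58 in the same order. In both lines the AZD and Ento+AZD arrays lay below the DMSO arrays without overlap, and the Ento arrays overlapped with them. Over both lines the change was -0.68 under AZD (SE 0.13, adjusted p = 0.00604) and -0.72 under Ento+AZD (SE 0.13, adjusted p = 0.00121), lower in 6 of 6 such differences in each. TCP11L1, the nearest coding gene at 2.59 kb on the same strand, fell as well, by 0.97 under AZD (adjusted p = 0.0143) and by 0.82 under Ento+AZD (adjusted p = 0.0232). LINC00294 was the only LINC RNA of the 200 that passed over both lines under AZD in all 12 such fits.

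LINC00938 rose under Ento+AZD, with 7.04, 7.60 and 7.53 under DMSO and 8.30, 8.38 and 7.98 under Ento+AZD in SU-DHL-4, and 7.16, 7.61 and 7.23 against 7.88, 7.69 and 7.39 in DG-75. The groups were separate in SU-DHL-4 and overlapped in DG-75. The change was 0.83 in SU-DHL-4 (adjusted p = 0.0219), 0.32 in DG-75 (adjusted p = 0.373) and 0.58 over both lines (adjusted p = 0.00377), and the difference between lines was 0.50 (adjusted p = 0.74). Within SU-DHL-4 it passed in 1 of 6 fits that left out an array, and not without the replicate number in the model. ARID2, a subunit of a chromatin remodelling complex 1.79 kb away, moved the other way over both lines, by -0.41 (adjusted p = 0.0175). LINC00476, whose start lies 0.286 kb from that of the repair gene ERCC6L2 on the opposite strand, rose by 0.48 over both lines (adjusted p = 0.0102), while the change of ERCC6L2 was 0.19 (adjusted p = 0.509). LINC00426, the third RNA that fell, changed by -0.37 (adjusted p = 0.0163). It no longer passed under either rescaling or without the replicate number in the model. It ran from 8.81 to 9.52 under Ento+AZD and from 9.16 to 9.62 under DMSO in SU-DHL-4, and from 8.0 to 8.24 and from 8.47 to 8.75 in DG-75, with an overlap in SU-DHL-4 only. Its nearest coding gene, KATNAL1, fell by 0.44 (adjusted p = 0.0219).

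LINC00667 rose in DG-75. Its DG-75 values were 7.25, 7.32 and 7.38 under DMSO, 7.67, 7.72 and 7.57 under Ento, 8.31, 8.17 and 8.24 under AZD and 8.46, 7.87 and 8.22 under Ento+AZD. All 9 treated arrays lay above the DMSO arrays. The change was 0.93 under AZD (adjusted p = 0.0471) and 0.87 under Ento+AZD (adjusted p = 0.0214). In SU-DHL-4 the arrays of all treatments lay between 5.81 and 6.51, with a change of 0.14 under Ento+AZD. The difference between lines was -0.73 (adjusted p = 0.399). The rise under AZD was lost in each of 6 fits that left out an array and under both rescalings, and that under Ento+AZD was lost in 5 of 6 such fits.

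**Figure D4:**
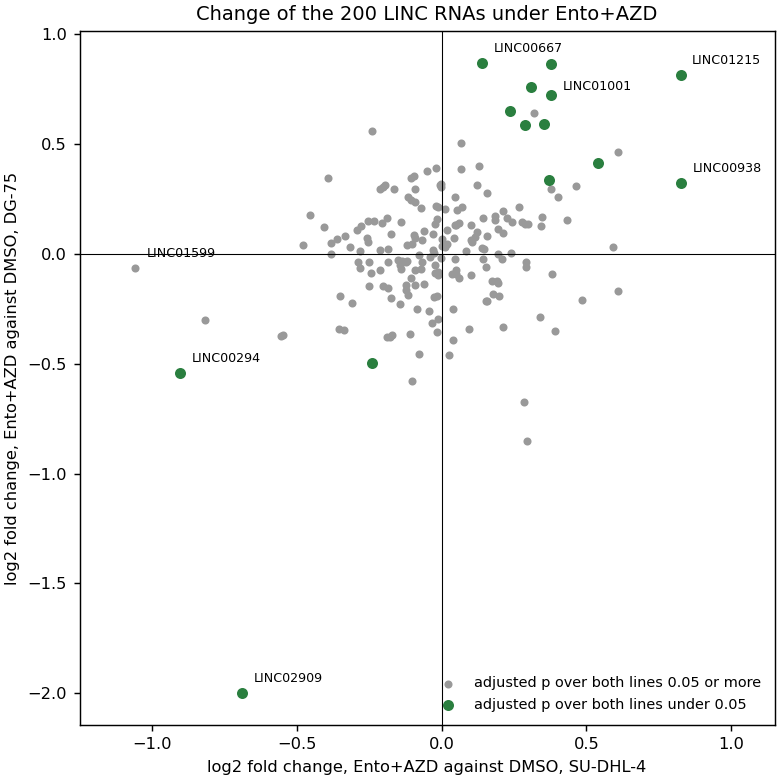
Log2 fold change of each LINC RNA under Ento+AZD against DMSO in SU-DHL-4 (horizontal) and DG-75 (vertical), with the 14 RNAs that passed the adjusted p over both lines in green. Of the 14, 11 lie in the upper right part and 3 in the lower left, and LINC02909 is lowest in DG-75 at -2.0.

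LINC01002, LINC01001, LINC01000 and LINC00999 were among the 10 brightest and moved together. After removal of the line means, LINC01001 correlated with LINC01002 at 0.95 over the 24 arrays, with LINC01000 at 0.85 and with LINC00999 at 0.81. RefSeq promoter windows were found for LINC01001 on chromosome 11 and LINC01002 on chromosome 19. When the windows were slid along each other, 230 of 233 overlapping bases were identical. The overlapping stretches are shown with the 3 differing bases in capitals, because they show how alike the loci are around the start. In LINC01001 the whole stretch lies before the listed start, and in LINC01002 its last 50 bases lie after it, so that the match is one of genomic sequence and does not show what the probes read.
LINC01001 (chr11:131871-132103, minus strand): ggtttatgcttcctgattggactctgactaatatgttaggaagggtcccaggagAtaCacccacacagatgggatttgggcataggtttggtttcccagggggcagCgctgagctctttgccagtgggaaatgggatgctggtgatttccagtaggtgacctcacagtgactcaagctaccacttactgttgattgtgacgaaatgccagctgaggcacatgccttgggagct
LINC01002 (chr19:202160-202392, minus strand): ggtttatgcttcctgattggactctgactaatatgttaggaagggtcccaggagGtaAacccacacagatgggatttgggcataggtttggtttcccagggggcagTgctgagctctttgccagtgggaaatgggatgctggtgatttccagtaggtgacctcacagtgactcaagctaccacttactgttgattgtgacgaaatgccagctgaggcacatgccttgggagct
LINC01001 rose over both lines under Ento+AZD by 0.62 (SE 0.14, adjusted p = 0.00773), LINC01000 by 0.44 (adjusted p = 0.00865) and LINC00999 by 0.44 (adjusted p = 0.0392). LINC01000 passed in all 12 fits that left out an array, whereas LINC00999 passed in 3 of 12 and not without the replicate number in the model. For LINC01002 the change was 0.26 (adjusted p = 0.0888), which did not pass. In DG-75 LINC01001 had 9.08, 9.41 and 9.06 under DMSO, 9.22, 9.39 and 9.25 under Ento, 9.95, 10.05 and 9.65 under AZD and 10.25, 10.08 and 9.83 under Ento+AZD. The AZD and Ento+AZD arrays lay above all DMSO and Ento arrays. Its change in DG-75 was 0.87 against DMSO (adjusted p = 0.0203) and 0.77 against Ento (adjusted p = 0.0273). Within DG-75 these held in 2 of 6 and in 1 of 6 fits that left out an array. In SU-DHL-4 the change was 0.38 (adjusted p = 0.283). Whether the probes separate LINC01001 from LINC01002 is not stated, so that their values are uncertain as single loci. The sequences of LINC01000 and LINC00999 were not compared here, and because their values moved with those of the other two, the 4 symbols should not be counted as 4 independent results.

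As with the line difference, passing under Ento+AZD went with level. Over both lines 4 of 142 LINC RNAs at 6 or under passed (2.82%), 5 of 46 between 6 and 8 (10.9%) and 5 of 12 above 8 (41.7%). Among all rows the shares were 2.75%, 14.6% and 22.6%. The 5 above 8 included LINC01001, LINC01000 and LINC00999, whose values may not be separate. The median absolute change was 0.12 over the 200 and 0.14 over all rows, and above 8 it was 0.27 for the 12 LINC RNAs against 0.17 for all rows.

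**Figure D5:**
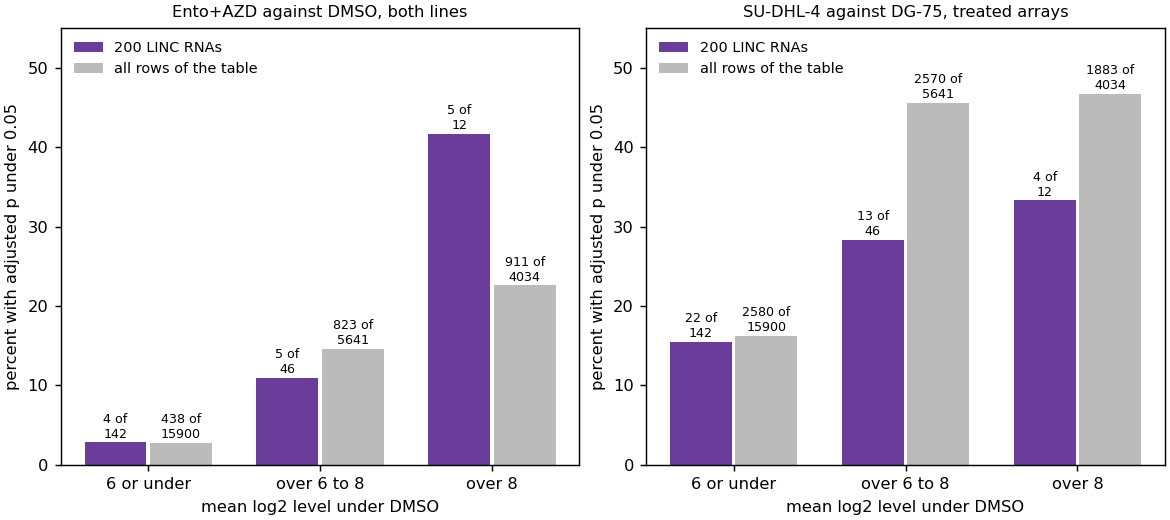
Percent of the 200 LINC RNAs (purple) and of all rows (grey) with an adjusted p under 0.05, by mean log2 level under DMSO, for Ento+AZD against DMSO over both lines (left) and for the line difference in treated arrays (right). Numbers over the bars are counts, and the shares are higher above 6 than at 6 or under in both panels.

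Under AZD alone over both lines 6 of the 200 passed the adjusted p (3%, against 4.66% of all rows), 3 higher (0.371% of all rows) and 3 lower (4.29%), and 7.98% of all rows that passed were higher. After quantile normalization 8 were higher and 2 lower (all rows 40% higher), and after subtraction of the array median 6 and 2 (all rows 28.6% higher). Beside LINC00294, those lower were LINC01599 (-0.76, adjusted p = 0.0195) and LINC02210 (-0.35, adjusted p = 0.025), and the latter lost this under both rescalings. Those higher were LINC00667 (0.53, adjusted p = 0.0436), LINC00891 (0.36, adjusted p = 0.0293) and LINC01000 (0.35, adjusted p = 0.0495), and each passed in 3 or 4 of 12 fits that left out an array. None of these 3 passed without the replicate number in the model.

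Adding the second agent to the first gave few calls, among the LINC RNAs as among all rows. Ento+AZD against Ento gave 0 calls among the 200 in SU-DHL-4 (0.0821% of all rows) and 1 in DG-75, LINC02909 (0.657%). In SU-DHL-4 12 of the 200 and 2474 of all 25575 rows had an unadjusted p under 0.05 in limma. Ento+AZD against AZD gave 0 in SU-DHL-4 (0.0274% of all rows) and 0 in DG-75 (0%). There 17 and 9 of the 200 had an unadjusted p under 0.05, against 1798 and 1030 of all rows. No difference between lines in the response to Ento, AZD or Ento+AZD was called for any of the 200 in limma, against 0.00782%, 0% and 0.0352% of all rows. For these differences 8, 14 and 18 of the 200 had an unadjusted p under 0.05, against 1134, 1576 and 1664 of all rows. The median SE of such a difference was 0.26, and with 3 arrays per group differences over 1 also went uncalled, such as the 1.31 of LINC02909.

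The changes in the lines, which share no arrays, can be set side by side. Across the 200 LINC RNAs the log2 change in SU-DHL-4 correlated with that in DG-75 at 0.22 under Ento, 0.20 under AZD and 0.35 under Ento+AZD. Over all rows the values were 0.12, 0.35 and 0.43. The sign was the same in both lines for 96 of the 200 under Ento (48%), 110 under AZD (55%) and 117 under Ento+AZD (58.5%), against 54.9%, 60.4% and 62.2% of all rows. For the 58 LINC RNAs with a DMSO mean over 6 the correlations were 0.57, 0.42 and 0.53, and for the 9675 rows at that level 0.31, 0.54 and 0.64. These are correlations across genes, which are not independent replicates, and some of the brightest symbols, such as LINC01001 and LINC01002, moved together.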

How the data were processed

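The data were 1 table of log2 expression values for 24 Clariom D human arrays. Per the authors' methods they were normalized by RMA (robust multi-array average), which yields log2 values per transcript, and a mapping of probes to genes through the array's annotation package. The deposited log2 values were used as they stand. The genome build, probe positions and the version of that package are not given in the sources used here, so that coordinates are those of RefSeq on GRCh38.p14 and belong to the printed promoter windows only. Where RefSeq listed several windows for a gene, the first was used for shares, and the nearest starts for distances. Column names identified every sample, and 0 columns were unused.

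Groups and replicate numbers came from the labels. Tests used the lmFit, contrasts.fit and eBayes functions of limma 3.58.1 under R 4.3.3 on all 25575 rows with Benjamini-Hochberg adjustment. Each line was fitted with treatment and replicate number, the latter in place of the batch term of the study's model. Both lines together were fitted with line as an additive term, and response differences as an interaction. The line difference used treated arrays averaged per line and replicate number, because DMSO arrays ranked the members. Calls needed an adjusted p under 0.05 and a fold change over 2. The nearest protein-coding gene was the one with the smallest gap between gene bounds, read-through genes and genes listed on unplaced or alternate scaffolds left out. The number of arrays limits the precision, and no detection call per probe set was used.

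Named RNAs were the called members, the 10 brightest, those at the edge of the ranking and those on fixed lists. The members and lists were chosen with earlier results of these data known. Alternatives were a fit without or with the replicate number, quantile normalization, subtraction of each array's median, omission of rows under the median, a prior variance that follows the level, ranking by treated arrays, DMSO in place of treated arrays, and omission of each array or replicate. The calculations were tested on simulated data.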

Additional observations from a re-analysis of the deposited data

How the results depend on the processing

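Counts of called members kept within 1.5 times their value and medians within 1 SD in 279 of 342 combinations of result and alternative, and 63 moved. In most comparisons no member was called in the main fit, and a count that stayed without calls was taken as kept. The total therefore says little about the few calls under the drugs. No called value changed sign. The median change of the members, near 0 throughout, turned its sign in 15 of 51 combinations, in 9 of 17 comparisons, none of which had a median beyond 0.0522 in size. For single named members 455 of 636 values stayed on their side of the threshold and 181 fell short of it. The labels do not say that the replicate numbers pair the arrays, and not every same-numbered pair was correlated. Deviations of same-numbered arrays correlated at -0.11 to 0.39 (median 0.15) in SU-DHL-4, where arrays of different number had -0.29 to 0.11 (median -0.07), and at -0.35 to 0.34 (median 0.04) in DG-75, against -0.41 to 0.36 (median -0.01). Without the replicate block, calls fell from 1 to 0 in SU-DHL-4 under AZD and under Ento+AZD, and members past the adjusted p over both lines from 6 to 3 under AZD and from 14 to 9 under Ento+AZD. With the block added, the line difference kept 12 calls. The cause of these moves was not tested.

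Quantile normalization and subtraction of array medians each gave 0 calls in SU-DHL-4 under AZD and under Ento+AZD. Quantile normalization gave 3 in DG-75 under Ento+AZD and 10 past the adjusted p under AZD over both lines. Leaving out rows under the median level gave 14 there, and that filter and the level-dependent prior each gave 1 call in DG-75 under AZD. Ranking by treated arrays gave 2 calls in SU-DHL-4 under Ento+AZD. Under quantile normalization and median subtraction the median change of the members became 0.0894 and 0.102 for Ento, 0.145 and 0.12 for AZD and 0.115 and 0.113 for Ento+AZD in SU-DHL-4, 0.124 and 0.121 for Ento+AZD in DG-75, 0.118 and 0.112 for Ento+AZD over both lines, 0.0814 and 0.0659 for the line difference, and 0.0683 and 0.0753 for Ento and 0.00816 and 0.00335 for AZD as response differences. Quantile normalization gave 0.16 for AZD over both lines. Ranking by treated arrays gave 0.028 for Ento+AZD over both lines and -0.00519 for the line difference.

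With 1 array left out, calls in DG-75 ranged from 0 to 2 for Ento+AZD against DMSO and from 0 to 1 against Ento, fell from 1 to 0 in SU-DHL-4 under AZD and under Ento+AZD in every fit, and members past the adjusted p over both lines ranged from 1 to 9 under AZD and from 7 to 13 under Ento+AZD. The line difference gave 14 calls in the DMSO arrays, 7 of them among the 12. The DMSO arrays also ranked the members, so these calls are a description and no check on the 12. The share of all rows called in that fit is not given here.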

Other observations

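Several further pairs of LINC RNAs moved together within lines over the 24 arrays, given as a description across arrays that share treatments. LINC01145 correlated with LINC01138 at 0.84, LINC02882 with LINC02116 at 0.80, and LINC01215 with LINC00476, both higher under Ento+AZD, at 0.76. Among the 23 long non-coding RNAs with other kinds of name, 3 passed the adjusted p over both lines under Ento+AZD, 2 higher and 1 lower. This was 13%, against 8.49% of all rows. Of the 1045 LINC symbols outside the 200, 10 did so (0.957%), 6 higher and 4 lower. The line difference passed in 69 of those 1045 (6.6%). The 200 LINC RNAs came from 24 chromosomes, with 23 on chromosome 1 and 17 on chromosome 2, and their median gap to the nearest protein-coding gene was 28.4 kb.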
